A study of Mus musculus with 8 samples.

Results

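Solute carrier transporter genes were examined in sorted mouse spermatogonia before and after the onset of differentiation. They were taken by name, as every row of the expression table whose symbol starts with Slc and a number, and 2 of the 111 matching genes (*Slc4a3* and *Slc9a3r1*) were set aside, which left 109 of the 5736 genes in the table. These 109 genes belong to 35 families, which the family number places in 8 classes by cargo. The name includes 2 genes that are no functional carrier by their annotation: *Slc9a3r2*, a scaffold protein that binds the sodium and proton exchangers, and *Slc22a13b-ps*, a pseudogene by its symbol.

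Bulk RNA-seq was done on 8 libraries of EGFP-positive germ cells sorted from testes of Uchl1-eGfp mice on an outbred CD-1 background, in which the *Uchl1* promoter drives EGFP. Every group carried the transgene and received bis-(dichloroacetyl)-diamine, an inhibitor of retinoic acid (RA) synthesis, orally from postnatal day 1, at 100 µg per g of body weight for 10 days, which holds spermatogonia undifferentiated. The libraries comprised 2 of undifferentiated spermatogonia (Aal), 3 of type A1 and 3 of type A3 differentiating spermatogonia, with differentiation started by one injection of 10 µl RA (10 µg/µl) on postnatal day 11. By the design text the undifferentiated state is that of the inhibitor-treated testis on the day of injection and A1 that of the following day, and the labels give no age for A3. The labels list the same protocol, with the RA injection, on every library including Aal, and do not say whether Aal was taken before it. Each library pooled testes of at least 5 pups, and the replicates were separate cell preparations. Library totals recovered from the values ran from 18276164 to 27316451 reads, and the median solute carrier gene had 136 to 229 reads in a library.

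Solute carriers are membrane proteins that move amino acids, sugars, ions, metals, vitamins, nucleotides and lipids across the plasma membrane or the membranes of organelles. Most work either as facilitators along a gradient or by coupling the cargo to sodium, protons or a counter-exchanged solute, and the *Slc25* family serves the inner mitochondrial membrane. In the seminiferous tubule, spermatogonia sit at the basal side and take nutrients from the interstitial fluid and from Sertoli cells, the somatic nurse cells. Lactate and glucose handling by monocarboxylate and glucose carriers is the best known example there.

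Of the 109 genes, 27 had a mean above 10 FPKM (fragments per kilobase, scaled to the reads of the library, so that genes of different length can be compared), 49 lay between 1 and 10, and 33 lay under 1. A gene was tested in a comparison when at least 2 of its libraries reached 1 FPKM, which held for 84 genes in at least 1 comparison and for 71 in all 3. The other 25 were tested in none and are given as levels only. A gene counted as called where the log2 fold change exceeded 1 in either direction with a limma adjusted p no higher than 0.01, and "rose" or "fell" is also used for an adjusted p of at most 0.05 at any fold. Fold changes are on the log2(FPKM + 1) scale, which understates changes of genes with low FPKM.

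In total 15 solute carrier genes were called in at least 1 comparison. Higher in A1 and A3 than in Aal were *Slc27a2* (a very long chain fatty acid transporter and acyl-CoA synthetase), *Slc29a4* (the plasma membrane monoamine transporter), *Slc17a7* (a vesicular glutamate transporter) and, in A3, *Slc52a3* (a riboflavin transporter). Lower were carriers of glucose (*Slc2a3*, *Slc5a1*), of amino acids and peptides (*Slc38a1*, *Slc38a4*, *Slc15a1*), of carnitine (*Slc22a16*), of cations (*Slc24a3*, *Slc9a4*, *Slc4a11*, *Slc30a10*) and of nucleotide sugars (*Slc35d2*). The genes with the highest levels, led by *Slc7a5* and *Slc3a2*, are outside this set.

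For 7 of these 15 genes RefSeq gives a single start in its promoter table (GRCm38.p6), and the 250 bases before that start are shown for these 7 because the start of each is unambiguous. Capitals mark 4 short motifs searched on both strands: AGGTCA (half-site of nuclear receptors such as the RA receptors), GGGCGG (GC box), CACGTG (E-box) and CCAAT. Each is written 5′ to 3′ on the strand of its gene. The first 3 belong to genes that rose and the other 4 to genes that fell.
Slc27a2 (chr2:126552774-126553023, plus strand): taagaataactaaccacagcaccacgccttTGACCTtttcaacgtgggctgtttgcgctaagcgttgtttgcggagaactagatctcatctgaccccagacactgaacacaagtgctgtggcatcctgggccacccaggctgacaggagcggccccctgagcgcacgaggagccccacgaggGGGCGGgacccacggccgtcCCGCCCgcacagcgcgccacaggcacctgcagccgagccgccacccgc
Slc17a7 (chr7:45163671-45163920, plus strand): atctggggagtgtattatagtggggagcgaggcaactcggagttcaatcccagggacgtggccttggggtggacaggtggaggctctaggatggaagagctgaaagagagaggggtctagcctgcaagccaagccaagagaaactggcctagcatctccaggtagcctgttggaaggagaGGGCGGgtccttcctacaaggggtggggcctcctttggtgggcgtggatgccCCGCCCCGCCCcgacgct
Slc29a4 (chr5:142701851-142702100, plus strand): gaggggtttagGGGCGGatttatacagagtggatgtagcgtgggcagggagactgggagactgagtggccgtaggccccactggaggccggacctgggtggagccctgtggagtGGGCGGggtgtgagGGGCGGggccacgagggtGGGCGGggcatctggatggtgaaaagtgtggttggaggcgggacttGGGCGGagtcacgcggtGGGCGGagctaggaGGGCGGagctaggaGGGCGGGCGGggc
Slc15a1 (chr14:121505255-121505504, minus strand): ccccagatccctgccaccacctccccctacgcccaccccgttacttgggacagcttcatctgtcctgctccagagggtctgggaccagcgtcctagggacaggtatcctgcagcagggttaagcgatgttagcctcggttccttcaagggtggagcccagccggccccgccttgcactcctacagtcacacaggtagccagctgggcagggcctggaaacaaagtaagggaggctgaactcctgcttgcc
Slc22a16 (chr10:40570112-40570361, plus strand): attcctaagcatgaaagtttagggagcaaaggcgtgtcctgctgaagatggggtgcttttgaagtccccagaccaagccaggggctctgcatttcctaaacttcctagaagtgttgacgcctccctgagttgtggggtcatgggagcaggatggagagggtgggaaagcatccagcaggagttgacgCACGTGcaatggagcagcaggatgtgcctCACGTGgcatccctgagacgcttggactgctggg
Slc5a1 (chr5:33103969-33104218, plus strand): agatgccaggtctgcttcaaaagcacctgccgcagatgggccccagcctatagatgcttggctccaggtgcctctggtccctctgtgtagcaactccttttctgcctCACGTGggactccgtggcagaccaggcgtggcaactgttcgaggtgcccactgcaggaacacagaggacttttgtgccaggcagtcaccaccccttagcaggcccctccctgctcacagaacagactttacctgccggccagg
Slc30a10 (chr1:185454598-185454847, plus strand): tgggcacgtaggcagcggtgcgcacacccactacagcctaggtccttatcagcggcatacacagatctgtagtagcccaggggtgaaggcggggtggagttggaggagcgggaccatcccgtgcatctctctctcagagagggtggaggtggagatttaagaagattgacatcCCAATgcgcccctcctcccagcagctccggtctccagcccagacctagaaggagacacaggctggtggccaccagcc

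The GC box was found upstream of *Slc27a2*, *Slc17a7* and *Slc29a4*, in 3 of the 7 windows. In *Slc29a4* it occurred at 9 positions, of which the last 2 share letters. Over all 32851 windows of this length it was held by 32.7%, and of the 110 windows of solute carrier genes 58.2% did. The E-box was found upstream of *Slc22a16* (at 63 and 34 bases before the start) and *Slc5a1*, against 6.02% of all windows and 16.4% of those of solute carrier genes. The nuclear receptor half-site occurred in *Slc27a2* alone among the 7, on the other strand, against 14% of all windows and 11.8% of solute carrier windows. CCAAT occurred in *Slc30a10* alone among the 7, against 33.8% and 34.5%. No match of one motif overlapped a match of another in these windows, and a match describes letters only.

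**Figure D1:**
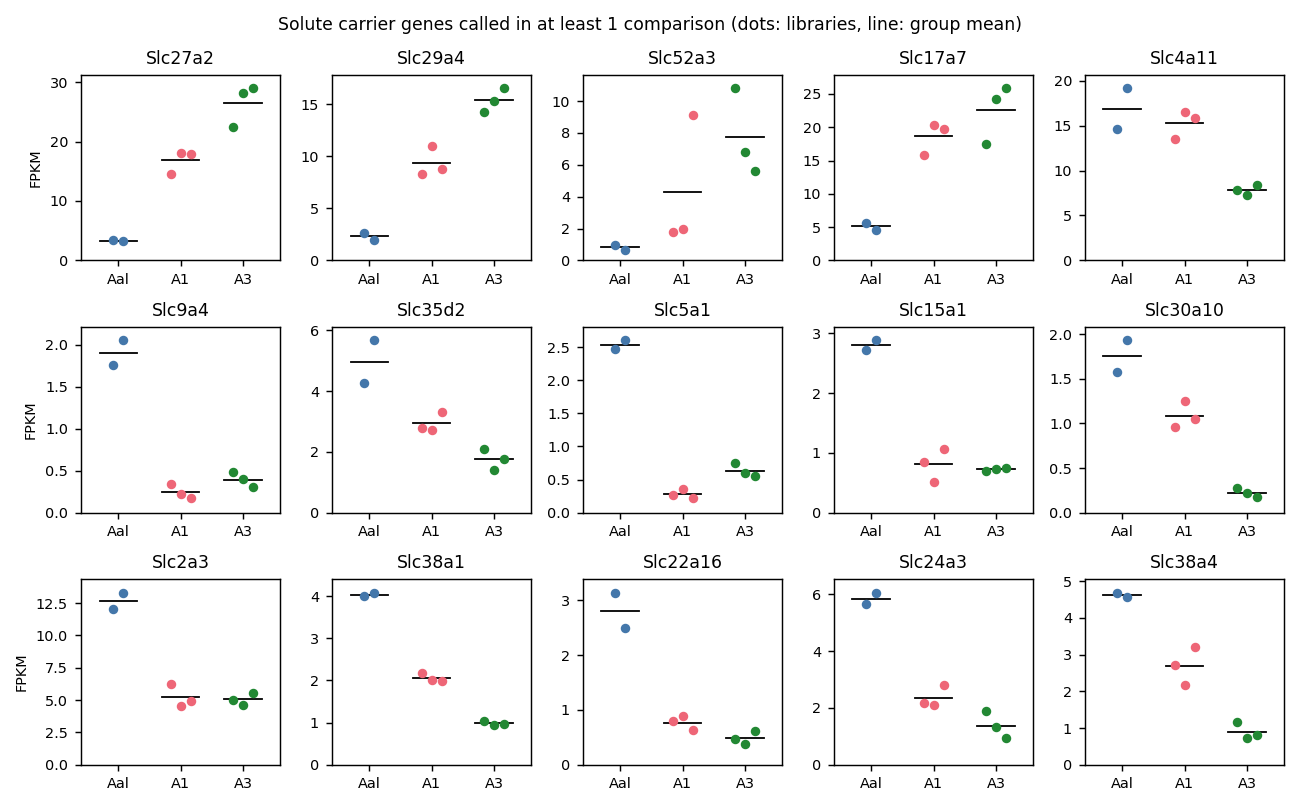
FPKM of the 15 called solute carrier genes in each library of Aal (2), A1 (3) and A3 (3), with dots for libraries and a line for the group mean on linear axes that start at 0. Slc27a2, Slc29a4 and Slc17a7 lie higher in every A1 and A3 library than in Aal, and Slc52a3 has 1 A1 library at 9.10 FPKM beside 2 under 2 FPKM.

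Carriers that change at the onset of differentiation are sought in A1 against Aal. Of 82 solute carrier genes tested, 9 were called (11%), 3 higher and 6 lower, beside 9.15% of the 4632 genes tested in the table (4.19% higher and 4.97% lower). At an adjusted p of at most 0.05 and any fold, 12 rose and 20 fell, which is 39% beside 42.0% of all genes. The share of carriers called therefore lay near the background, and their median log2 fold change was -0.06 beside 0.03 over all genes. Of the 82, 10 passed the filter through the libraries of 1 group alone, and 3 of these were among the calls. Those 3 were *Slc5a1*, *Slc22a16* and *Slc9a4*, each through Aal, where it was high. With no filter all 109 were tested and 9 were called. Without either Aal library 3 were called, the same 3 that were higher, while 3 of the 6 lower genes fell under the filter and 3 no longer passed the adjusted p.

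A3 against A1 asks the same of the step to the middle of differentiation. Of 75 solute carrier genes tested 0 were called by limma, beside 1.5% of the 4590 genes tested. At an adjusted p of at most 0.05, 5 rose and 16 fell (28%), beside 19.4% of all genes (7.95% higher and 11.5% lower). An unadjusted p under 0.05 was found for 30 carriers (40%), beside 34% of all genes. limma voom on the recovered reads called 9, of which 8 were lower, and it called 199 of all genes beside 69 in the main fit. Without the first A3 library 4 were called, *Slc39a3* higher and *Slc1a4*, *Slc38a4* and *Slc9a3r2* lower, beside 107 of all genes. The median log2 fold change was 0.01 over both the carriers and all genes.

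A3 against Aal gives the net change and shares its libraries with both other comparisons. Among the 81 genes tested here 15 calls were made (18.5%; 4 up, 11 down), beside 17.6% of 4687 genes (7.87% higher and 9.69% lower). At an adjusted p of at most 0.05, 16 rose and 31 fell (58.0%), beside 57.5% of all genes (29.8% higher and 27.7% lower). The median log2 fold change was -0.07 beside 0.05. Here 11 of the 81 passed the filter through 1 group alone, 6 of them called, and with no filter the count called was again 15. Those 6 were *Slc5a1*, *Slc15a1*, *Slc22a16*, *Slc9a4* and *Slc30a10* through Aal and *Slc52a3* through A3. Without the second Aal library 8 of the 15 were called, 5 fell under the filter, and *Slc35d2* and *Slc4a11* were tested and not called.

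**Figure D2:**
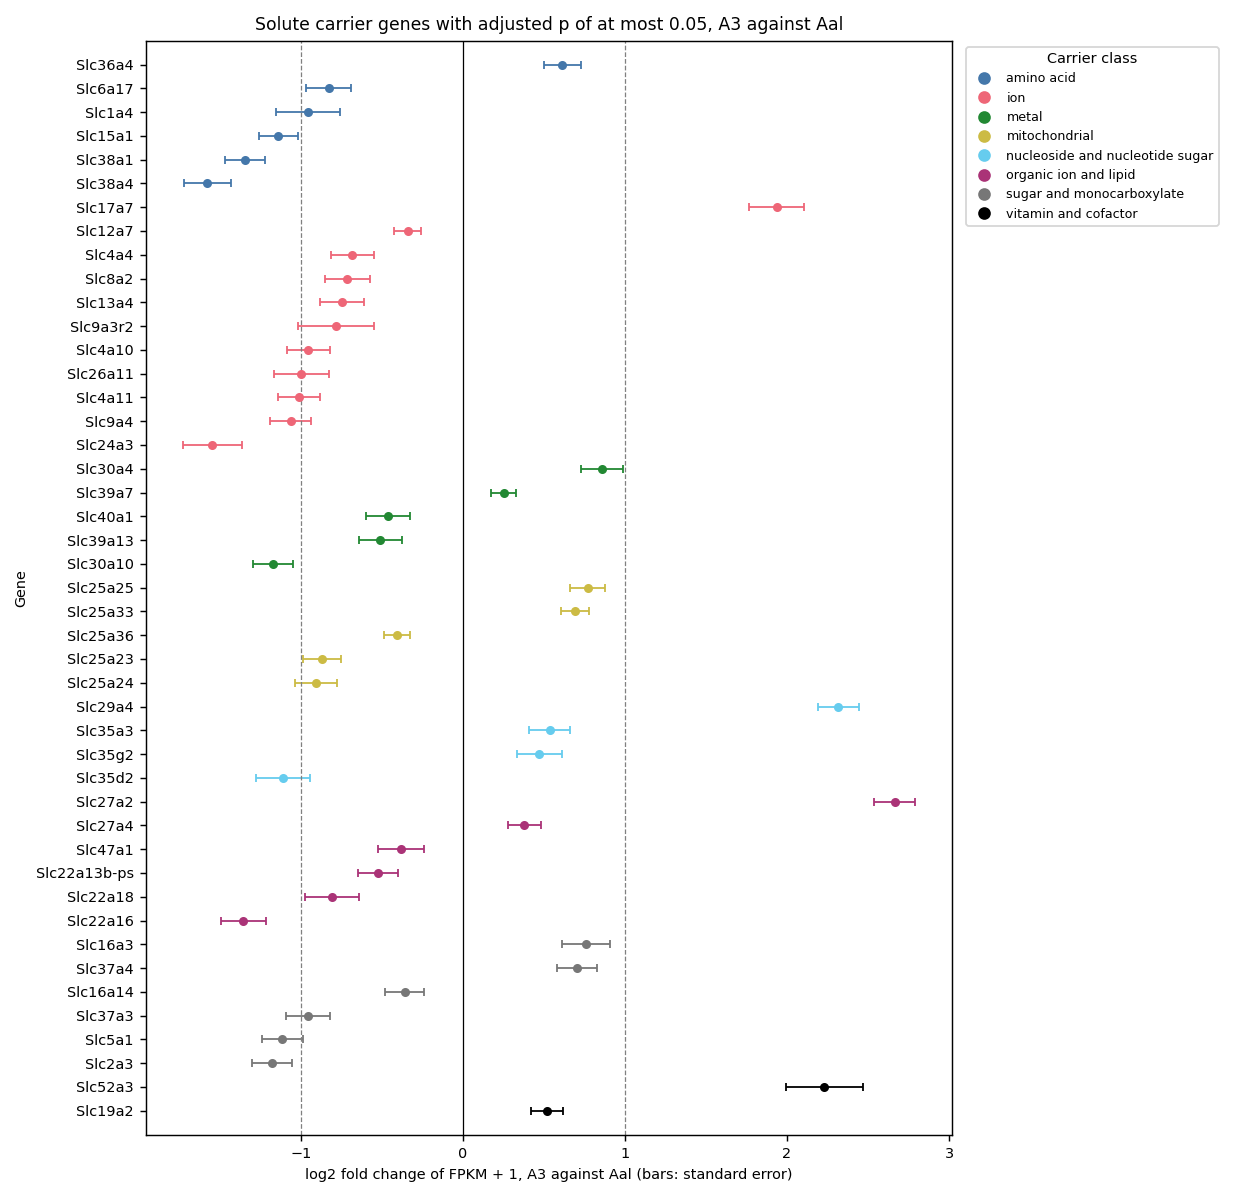
Log2 fold change of FPKM + 1 in A3 against Aal for 45 of the 47 solute carrier genes with a limma adjusted p of at most 0.05, coloured by carrier class. Points are estimates, bars are standard errors and dashed lines mark a log2 fold change of 1 in either direction. Of the 11 ion class genes shown (the scaffold Slc9a3r2 among them) 10 lie below 0, and both vitamin carriers lie above it. Of all genes tested 29.8% were higher and 27.7% lower at this threshold.

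Summed over all 109 genes, the level overlapped between groups. The genes added up to 931 and 975 FPKM in Aal, 932, 951 and 960 in A1 and 939, 948 and 970 in A3. The class sums differed more. Organic ion and lipid carriers summed to 36.7 and 37.6 FPKM in Aal, to 46.5, 51.5 and 51.2 in A1 and to 53.9, 61.7 and 67.5 in A3, with no overlap between the 3 groups. This rise rested on *Slc27a2*: without it the class summed to 33.4 and 34.3, then 31.9, 33.4 and 33.2, then 31.5, 33.5 and 38.5 FPKM, and the groups overlapped. Sugar and monocarboxylate carriers went the other way, from 43.8 and 44.3 FPKM to 36, 34.9 and 36.2 and then 32.8, 33.7 and 33.2, with Aal above every later library. Without *Slc2a3* it was 31.8 and 31 FPKM in Aal, 29.8 to 31.3 in A1, which overlapped with Aal, and 27.6 to 29.1 in A3, below both. Ion carriers lay at 196 and 212 FPKM in Aal and 190 to 206 in A1, and at 168 to 177 in A3, below every other library. Metal carriers summed to 192 to 203 FPKM in A3 and to 174 to 183 in the other 5 libraries. Without *Slc39a7* the lowest A3 sum was 107.03 FPKM, against 106.46 in the third A1 library. Both metal gaps, with and without *Slc39a7*, are smaller than the spread of the median-ratio scaling factors of the libraries (0.966 to 1.02). So is the gap of A3 in the sugar class without *Slc2a3*, and no difference is read from these gaps. In bulk samples fewer cells that express a gene and less of its RNA per cell cannot be told apart.

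**Figure D3:**
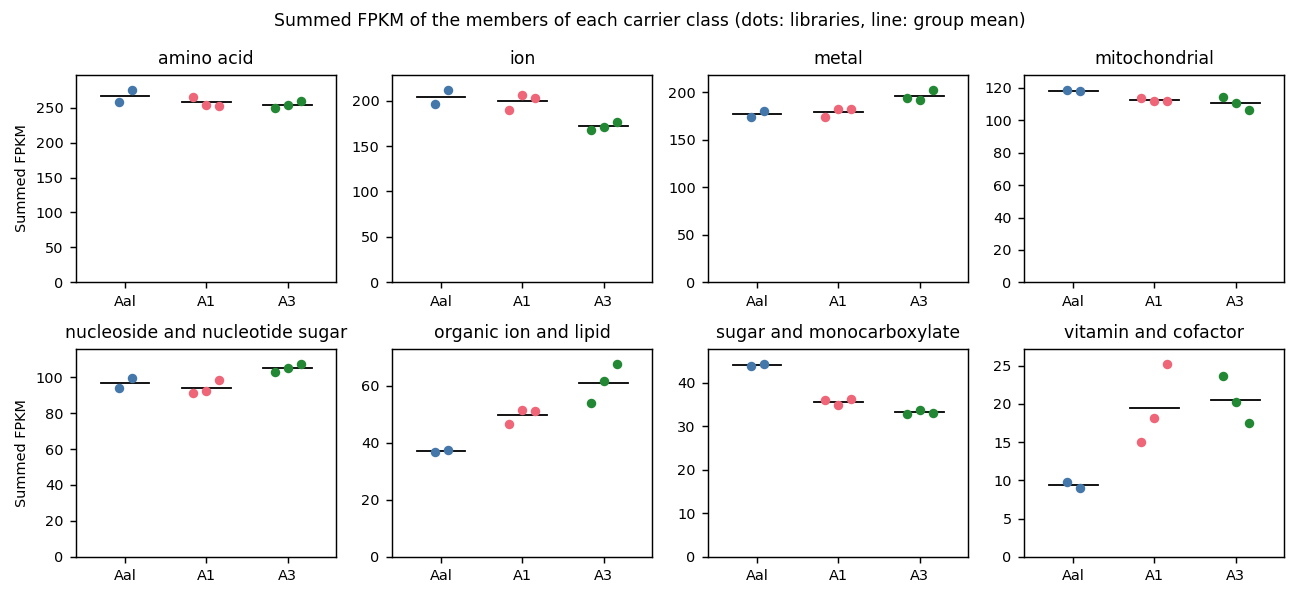
Summed FPKM of the members of each of the 8 carrier classes in each library, with dots for libraries and a line for the group mean on linear axes that start at 0. Sums of the sugar and monocarboxylate class are highest in Aal (43.8 and 44.3), those of the organic ion and lipid class are highest in A3 (53.9 to 67.5), and the amino acid class overlaps between groups.

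Among amino acid carriers, 21 genes in all, *Slc7a5* and *Slc3a2* had the highest levels of any solute carrier gene. *Slc7a5* encodes the light chain and *Slc3a2* the heavy chain of the large neutral amino acid exchanger LAT1 and 4F2hc, which imports leucine. *Slc7a5* had 112 and 129 FPKM in Aal, 124, 114 and 113 in A1 and 115, 120 and 123 in A3. *Slc3a2* had 79.6 and 82.2, then 81.6, 78.7 and 79.3, then 81.9, 83.3 and 84.2 FPKM. The groups overlapped for *Slc7a5* in every comparison, and neither gene passed the test in any (lowest limma adjusted p 0.442). Together they held 19.99% to 22.1% of the summed FPKM of all solute carrier genes in each library, and the ratio of *Slc7a5* to *Slc3a2* lay between 1.40 and 1.56.

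The sodium-coupled neutral amino acid transporters *Slc38a1* and *Slc38a4*, which carry glutamine and alanine among others, fell at both steps. *Slc38a4* had 4.69 and 4.58 FPKM in Aal, 2.73, 2.18 and 3.2 in A1 and 1.15, 0.717 and 0.816 in A3. Its log2 fold change was -0.61 (SE 0.15, limma adjusted p 0.0153) in A1 against Aal, -0.96 (SE 0.15, 0.0053) in A3 against A1 and -1.58 (SE 0.14, 6.09e-05) in A3 against Aal. The 3 groups did not overlap, so the lowest A1 library still lay above the highest A3 library. *Slc38a1* had 3.99 and 4.08 FPKM, then 2.18, 2.02 and 1.98, then 1.04, 0.944 and 0.963, with log2 fold changes of -0.72, -0.62 and -1.35 in the same order (limma adjusted p 0.00283, 0.00725 and 6.02e-05). Its replicates lay close together in each group, and the groups again did not overlap. The other family member in the table, *Slc38a6*, had 6.06 to 9.78 FPKM with overlapping groups and did not pass the test in any comparison.

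*Slc15a1*, the proton-coupled peptide transporter PEPT1, fell at the first step. It had 2.72 and 2.88 FPKM in Aal, 0.855, 0.504 and 1.07 in A1 and 0.693, 0.731 and 0.748 in A3, and its log2 fold change was -1.08 (SE 0.17, limma adjusted p 0.00193) in A1 and -1.14 (SE 0.12, 0.00012) in A3 against Aal. A1 and A3 overlapped, and the gene was under the filter for A3 against A1. In A3 against Aal it passed the filter through Aal alone. Its call in A1 was lost without either Aal library and without the second A1 library, where the adjusted p was 0.0252, 0.0354 and 0.00489 and the log2 fold change -1.11, -1.05 and -0.96. *Slc15a3*, a lysosomal peptide and histidine transporter, had its highest level in A1: 0.583 and 0.357 FPKM in Aal, 1.28, 1.37 and 1.24 in A1, and 0.248, 0.0572 and 0.355 in A3. It rose by 0.65 and then fell by 0.92 on the log2 scale (limma adjusted p 0.00676 and 0.00385). *Slc15a3* passed the filter in both comparisons through A1 alone and was named for its A1 level, so these p-values are a description. The levels are low, with 3 to 88 reads per library, and the gene overlaps *Tmem132a* on the other strand.

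Of the other amino acid carriers, *Slc36a4*, of the proton-coupled amino acid transporter family, rose in A1 (log2 fold change 0.62, limma adjusted p 0.00271) and stayed there, with 8.23 and 6.91 FPKM in Aal and 11.3 to 12.6 in the 6 later libraries. *Slc6a17*, a vesicular neutral amino acid transporter, and *Slc1a4*, the alanine, serine and cysteine transporter ASCT1, fell in A3 instead. *Slc1a4* had 3.05 to 3.47 FPKM in Aal and A1 and 1.9, 0.946 and 0.928 in A3, so that the first A3 library lay between the other A3 libraries and A1. Over the class, 2 of 13 tested genes rose and 3 fell in A1 against Aal, 0 of 13 rose and 5 fell in A3 against A1, and 1 of 12 rose and 5 fell in A3 against Aal. These are 38.5%, 38.5% and 50%, beside 42.0%, 19.4% and 57.5% of all genes. The glycine transporter *Slc6a9*, next in level after these chains at 19 to 26.2 FPKM, did not pass the test in any comparison.

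Both glucose carriers that were called fell. *Slc2a3* encodes GLUT3, a facilitative glucose transporter with high affinity. It had 12 and 13.3 FPKM in Aal, 6.27, 4.51 and 4.95 in A1 and 4.99, 4.6 and 5.56 in A3. Every A1 and A3 library lay at or under 6.27 FPKM, while A1 and A3 overlapped. The log2 fold change was -1.14 (SE 0.14, limma adjusted p 0.000845) in A1 against Aal, -0.04 (0.878) in A3 against A1, which turned positive under quantile scaling, and -1.18 (SE 0.12, 0.000106) in A3 against Aal. *Slc2a3* (chromosome 6, 122677827 to 122751658 on mm9) overlaps *Gm4482* on its own strand, so its reads are uncertain. The A1 call was lost without either Aal library (limma adjusted p 0.0108 and 0.0184).

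*Slc5a1*, the sodium and glucose cotransporter SGLT1, was lowest in A1. It had 2.47 and 2.6 FPKM in Aal, 0.262, 0.363 and 0.223 in A1 and 0.752, 0.603 and 0.554 in A3. The 3 groups did not overlap, with log2 fold changes of -1.47 (SE 0.12, limma adjusted p 0.000271) for A1 and -1.11 (SE 0.13, 0.00016) for A3 against Aal. A3 against A1 was under the filter, and *Slc5a1* overlaps *Gm15936* and, on the other strand, *5033423K11Rik*. In both comparisons against Aal it passed the filter through Aal alone. The myo-inositol transporter *Slc5a3* had the highest mean of the class, 8.59 to 12.3 FPKM, and did not pass the test; it overlaps *Mrps6* on its own strand.

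Carriers of sugar phosphates and monocarboxylates moved in both directions. *Slc37a3* had 7.06 and 6.61 FPKM in Aal and 5.20, 5.90 and 6.73 in A1, and fell to 3.45, 3.04 and 2.67 in A3 (log2 fold change against A1 -0.77, limma adjusted p 0.00659). *Slc37a4*, the glucose 6-phosphate translocase of the endoplasmic reticulum, rose instead, from 1.9 and 2.04 FPKM in Aal to 3.71, 3.95 and 3.87 in A3 (0.71, 0.00149). *Slc16a3*, the lactate exporter MCT4, rose from 0.643 and 1.1 FPKM to 1.54, 1.68 and 2.08 in A1 and 1.99, 2.22 and 2.23 in A3 (A3 against Aal 0.76, 0.0025). Over the class, 1 of 9 tested genes rose and 3 fell in A1 against Aal, and 2 of 9 rose and 4 fell in A3 against Aal. These are 44.4% and 66.7%, beside 42.0% and 57.5% of all genes. Of 4 partner proteins of carriers in the table, 1 rose and 2 fell in A1 against Aal (75%, beside 42.0% of all genes). *Bsg* (basigin, partner of MCT1 and MCT4) rose by 0.72 in A1, while *Emb* (embigin, partner of MCT2) had a log2 fold change of -0.96 and *Nptn* (neuroplastin) of -0.57, with limma adjusted p of 0.000982, 0.0011 and 0.000534.

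In the mitochondrial *Slc25* family 13 genes were in the table and 0 were called in any comparison. At an adjusted p of at most 0.05, 4 of 10 tested genes changed in A1 against Aal, 1 in A3 against A1 and 5 in A3 against Aal, which is 40%, 10% and 50% of the 10 beside 42.0%, 19.4% and 57.5% of all genes. Those with an unadjusted p under 0.05 were 4, 3 and 6 of 10 (40%, 30% and 60%), beside 49.7%, 34% and 62.1%. The 3 members of the calcium-regulated ATP-Mg and phosphate carrier group, which sets the adenine nucleotide pool of the matrix, moved differently. *Slc25a23* had 16.3 and 18.9 FPKM in Aal and 8.38 to 10.3 in the 6 later libraries, and fell in A1 (log2 fold change -0.79, SE 0.10, limma adjusted p 0.000864). *Slc25a24* had 6.18 and 5.79 FPKM in Aal, 5.66, 4.69 and 5.11 in A1 and 3.01, 2.55 and 2.63 in A3, so its fall came in A3 (-0.72 against A1, SE 0.11, 0.00545). *Slc25a25* rose, from 7.63 and 7.57 FPKM to 11.9, 12.4 and 10.8 in A1 and 12.3, 14 and 14.7 in A3 (A1 against Aal 0.56, SE 0.10, 0.0035).

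A similar split held for the pyrimidine nucleotide carriers. *Slc25a36* (PNC2) had the highest level of the family and declined from 39.1 and 40.5 FPKM to 34.1, 32.8 and 34.7 in A1 and 31.2, 30.5 and 27.5 in A3 (A3 against Aal -0.41, limma adjusted p 0.00255). *Slc25a33* (PNC1) rose from 11.8 and 11.4 FPKM to 19.2, 18.6 and 17.6 and stayed at 19.6, 20.1 and 18.6 (A1 against Aal 0.63, 0.00088). The libraries of Aal overlapped with no later library for either gene. *Slc25a23*, *Slc25a25*, *Slc25a33* and *Slc25a36* each overlap another gene on the other strand. Of 5 other mitochondrial gates in the table, 1 rose and 1 fell in A1 against Aal (40%, beside 42.0% of all genes). *Mpc1*, a subunit of the pyruvate carrier, had 3.15 and 2.28 FPKM in Aal, 4.28, 4.76 and 4.34 in A1 and 2.33, 2.96 and 3.06 in A3, rising by 0.56 and then falling by 0.53 on the log2 scale (limma adjusted p 0.0178 and 0.0202). *Sfxn1*, a serine carrier of mitochondria, went the other way in A1, with 5.86 and 3.90 FPKM in Aal, 1.17, 0.977 and 2.63 in A1 and 2.48, 1.69 and 1.66 in A3 (-1.22 and -0.99 against Aal, limma adjusted p 0.0122 and 0.00258).

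Ion carriers formed the largest class, with 23 genes, and most of those that passed the test fell. In A1 against Aal 2 of 16 tested genes rose and 6 fell, in A3 against A1 0 of 14 rose and 5 fell, and in A3 against Aal 2 of 17 rose and 11 fell. These are 50%, 35.7% and 76.5% of the genes tested, beside 42.0%, 19.4% and 57.5% of all genes. Of all genes 20.6%, 11.5% and 27.7% fell. The scaffold *Slc9a3r2* is among the falls in both comparisons of A3. The potassium and chloride cotransporter *Slc12a7* (KCC4) had the highest mean of the class. It had 53.6 and 61.0 FPKM in Aal, 53.7, 56.1 and 55.7 in A1 and 41.8, 45.4 and 47.7 in A3, and fell at the second step (A3 against A1 -0.29, SE 0.06, limma adjusted p 0.0164).

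Exchangers of sodium fell to different depths. *Slc24a3*, a potassium-dependent sodium and calcium exchanger, had 5.64 and 6.05 FPKM in Aal, 2.16, 2.12 and 2.80 in A1 and 1.88, 1.32 and 0.926 in A3. *Slc24a3* overlaps *5S_rRNA* and *Gm14093* on its own strand and *7SK*, *Gm11759* and *Gm14092* on the other, so its reads are uncertain. Its 3 groups did not overlap, with log2 fold changes of -1.03 (SE 0.14, limma adjusted p 0.00118) in A1 and -1.55 (SE 0.18, 0.000195) in A3 against Aal. The A1 call was lost without any 1 of Aal-1, Aal-2, A1-1 or A1-2, at log2 fold changes from -0.98 to -1.08. *Slc9a4* (the sodium and proton exchanger NHE4) had 1.77 and 2.05 FPKM in Aal, 0.343, 0.220 and 0.172 in A1 and 0.483, 0.398 and 0.300 in A3, called in A1 and A3 against Aal (-1.23 and -1.06, limma adjusted p 0.000471 and 0.000216). In both, *Slc9a4* passed the filter through Aal alone. It overlaps *snoU13* on its own strand, so its reads are uncertain.

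*Slc4a11*, a member of the bicarbonate transporter family, fell at the second step. It had 14.6 and 19.2 FPKM in Aal, 13.5, 16.6 and 15.9 in A1 and 7.82, 7.28 and 8.38 in A3. Its log2 fold change was -0.88 (SE 0.10, limma adjusted p 0.00169) in A3 against A1 and -1.01 (SE 0.13, 0.000322) in A3 against Aal, just past the fold threshold. It is the eleventh fall by size and was named after its values were seen. *Slc9a3r2*, the scaffold, had 11.8 and 12 FPKM in Aal, 12.4, 14.9 and 14.6 in A1, and 9.87, 4.88 and 5.60 in A3 (A3 against A1 -0.99, SE 0.22, 0.0182). The first A3 library lay well above the other A3 libraries, and without it the gene was called, at -1.26 (limma adjusted p 0.00161).

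*Slc17a7* (VGLUT1), best known for loading glutamate into synaptic vesicles of neurons, was the ion carrier with the largest change on the log2(FPKM + 1) scale. It had 5.68 and 4.54 FPKM in Aal, 15.8, 20.4 and 19.8 in A1 and 17.5, 24.3 and 25.8 in A3. Every later library lay above 15 FPKM, and A1 and A3 overlapped. Its log2 fold change was 1.68 (SE 0.14, limma adjusted p 0.000258) in A1 and 1.94 (SE 0.17, 4.92e-05) in A3 against Aal, and 0.25 (0.309) in A3 against A1. It lies on chromosome 7 (52419291 to 52431508, mm9) and overlaps no annotated gene. Among 6 ion pumps in the table, 1 rose and 2 fell of 6 tested in A1 against Aal, and 1 rose and 3 fell of 5 tested in A3 against Aal. These are 50% and 80%, beside 42.0% and 57.5% of all genes.

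Among carriers of organic ions and lipids more genes fell than rose, 3 against 1 of 8 tested in A1 against Aal and 4 against 2 of 7 in A3 against Aal, with a median log2 fold change of -0.38 in the latter. Together 50% and 85.7% of the class passed the test, beside 42.0% and 57.5% of all genes. *Slc27a2* had the largest log2 fold change of any solute carrier gene tested in A3 against Aal. It had 3.35 and 3.29 FPKM in Aal, 14.6, 18.1 and 18 in A1 and 22.4, 28.2 and 29 in A3, which is 5.09 and 7.99 times the Aal mean (*Slc52a3*, from a lower level, reached 9.53 times in A3). The 3 groups did not overlap. The log2 fold change was 2.04 (SE 0.12, limma adjusted p 0.000127) in A1 against Aal, 0.62 (SE 0.12, 0.0124) in A3 against A1 and 2.66 (SE 0.13, 7.41e-06) in A3 against Aal, with 186 to 1683 reads per library. *Slc27a2* (chromosome 2, 126378143 to 126413979, mm9) overlaps *Gm16762* on the other strand. *Slc27a4* (FATP4), the class member with the highest mean, had 19.2 and 20.6 FPKM in Aal and 23.5, 26.3 and 29.1 in A3, and rose by 0.38 (limma adjusted p 0.0124) in A3 against Aal.

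*Slc22a16*, a carnitine transporter known from testis, went down instead. It had 3.14 and 2.49 FPKM in Aal, 0.793, 0.881 and 0.634 in A1 and 0.471, 0.379 and 0.618 in A3, with no overlap between the groups. It was called in A1 (log2 fold change -1.1, SE 0.14, limma adjusted p 0.000954) and A3 (-1.35, SE 0.14, 0.00011) against Aal. In both, *Slc22a16* passed the filter through Aal alone, where it was high. *Slc22a13b-ps* and *Slc22a18* also fell against Aal in both, at under 2 FPKM in every library.

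*Slc29a4* is numbered with the equilibrative nucleoside transporters but carries monoamines and other organic cations. It had 2.58 and 2.00 FPKM in Aal, 8.28, 11 and 8.81 in A1 and 14.2, 15.3 and 16.5 in A3. The groups did not overlap, and its level rose at both steps: the log2 fold change was 1.65 (SE 0.15, limma adjusted p 0.000321), then 0.67 (SE 0.11, 0.0073), and 2.32 (SE 0.13, 1.15e-05) over both. It lies on chromosome 5 (143178055 to 143198443, mm9) and overlaps no annotated gene. The *Slc35* family is numbered as nucleotide sugar carriers, which feed the glycosylation enzymes of the Golgi and endoplasmic reticulum. Its members were classed by number alone, whatever each one carries. Among them *Slc35b1* had the highest level (39.3 to 51.4 FPKM) and did not pass the test. *Slc35d2* fell from 4.28 and 5.67 FPKM to 2.78, 2.72 and 3.32 and then 2.11, 1.42 and 1.77, and was called in A3 against Aal (-1.11, SE 0.17, 0.000676). That call was lost without the second Aal library (-0.94, limma adjusted p 0.0132). *Slc35a3*, a UDP-N-acetylglucosamine carrier, rose from 1.39 and 1.33 FPKM to 2.26, 3.07 and 3.02 in A1 (0.67, 0.00956).

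Of 12 metal carriers tested 1 rose and 2 fell in A1 against Aal (25%, beside 42.0% of all genes), 1 rose and 2 fell in A3 against A1 (25% beside 19.4%), and 2 rose and 3 fell in A3 against Aal (41.7% beside 57.5%). The zinc carrier *Slc39a7* (ZIP7), which releases zinc from the endoplasmic reticulum, had the highest level, with 70.5 and 75.1 FPKM in Aal, 71.1, 78.6 and 75.7 in A1 and 87.5, 80.8 and 92.6 in A3 (A3 against Aal 0.25, limma adjusted p 0.0225). Under the alternatives this log2 fold change ran from 0.05 to 0.30, so its size depends on the processing. The rise did not pass an adjusted p of 0.05 under every alternative. *Slc30a10*, a manganese exporter, was the metal carrier that was called. It had 1.58 and 1.93 FPKM in Aal, 0.963, 1.25 and 1.05 in A1 and 0.280, 0.215 and 0.170 in A3. The groups did not overlap, and most of the loss came at the second step (log2 fold change -0.40, 0.0515, then -0.77, 0.00459, and -1.17, 0.000122, over both, all limma adjusted p). *Slc30a10* overlaps *Gm2061* on the other strand. It passed the filter through Aal alone in A3 against Aal and through A1 alone in A3 against A1.

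The zinc exporter *Slc30a4* (ZnT4) rose from 6.40 and 4.89 FPKM to 9.11, 8.81 and 9.13 in A1 and 11.1, 11.6 and 10.3 in A3 (A1 against Aal 0.60, SE 0.13, limma adjusted p 0.00759). *Slc39a3* (ZIP3), a zinc importer of the plasma membrane, dipped in A1. It had 6.04 and 6.58 FPKM in Aal, 4.6, 4.62 and 3.62 in A1 and 6.74, 9.67 and 10.1 in A3. Every A1 library lay below every other library, with log2 fold changes of -0.47 (SE 0.14, limma adjusted p 0.0276) and 0.88 (SE 0.16, 0.00938). *Slc39a3* was named for its A1 level, so the lack of overlap and these p-values are a description. The iron exporter *Slc40a1* (ferroportin) had 2.55 to 3.2 FPKM in Aal and A1 and 1.86, 1.88 and 1.68 in A3 (A3 against A1 -0.45, 0.0225). Of 4 iron and zinc handling genes in the table, 2 rose and 1 fell in A3 against Aal (75%, beside 57.5% of all genes). The ferrireductase *Steap3* was called higher in A3 against Aal (1.67, limma adjusted p 0.000956), with 0.417 and 0.338 FPKM in Aal and 1.88, 4.46 and 4.38 in A3. There *Steap3* passed the filter through A3 alone.

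Of 3 vitamin carriers in the table, *Slc19a2*, the thiamine transporter THTR1, had the highest level. It had 8.46 and 8.05 FPKM in Aal, 12.9, 15.7 and 15.7 in A1 and 12.4, 12.8 and 11.7 in A3, with a log2 fold change of 0.76 (SE 0.11, limma adjusted p 0.00152) in A1 and 0.52 (SE 0.10, 0.00228) in A3 against Aal. No later library overlapped with Aal. *Slc23a1*, an ascorbate transporter, had 0.303 to 0.639 FPKM and was under the filter.

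*Slc52a3* (RFVT3), a riboflavin transporter, was uneven within A1. It had 0.973 and 0.648 FPKM in Aal, 1.79, 1.97 and 9.10 in A1 and 10.8, 6.78 and 5.58 in A3. The third A1 library lay within the range of A3, and the other A1 libraries lay nearer to Aal. The gene was called in A3 against Aal (log2 fold change 2.23, SE 0.24, limma adjusted p 0.000128) but not in A1 against Aal (1.28, SE 0.53, 0.0914) or A3 against A1 (0.95, SE 0.48, 0.214). In both comparisons against Aal it passed the filter through the later group alone. Without the third A1 library the log2 fold change against Aal was 0.68 in A1, and that of A3 against A1 was 1.55 and was called (limma adjusted p 0.00485).

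The same libraries were high in Sertoli cell markers. Of 20 markers on the list 11 were in the table, and they summed to 55.4 and 39.5 FPKM in Aal, 60.1, 62.2 and 424 in A1 and 407, 313 and 219 in A3. In A3 against Aal 7 of 9 tested markers were called higher and 1, *Trf*, was called lower, beside 7.87% and 9.69% of all genes. Of those called higher, *Fshr*, *Inhbb* and *Kitl* passed the filter through A3 alone, where they were high. The amino acid carrier *Slc6a14*, whose pattern over the 8 libraries was the most like that of *Slc52a3* among 83 carriers (Pearson r of 0.94, a description), had 0.0362 and 0.0348 FPKM in Aal, 0.123, 0.224 and 1.02 in A1 and 1.15, 0.365 and 0.577 in A3. *Slc25a21*, the oxodicarboxylate carrier, had 0.435 and 0.382 FPKM in the third A1 and the first A3 library and at most 0.129 elsewhere, on 22 reads at most. The part of the Sertoli markers in these values was not tested. *Slc6a14* and *Slc25a21* were named after their values were seen.

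*Slc27a2*, *Slc29a4* and *Slc17a7* were, like the Sertoli markers, lowest in Aal. In the first and second A1 libraries the Sertoli sums were 60.1 and 62.2 FPKM, against 55.4 and 39.5 in Aal, and *Slc27a2* was at 14.6 and 18.1 FPKM, *Slc29a4* at 8.28 and 11 and *Slc17a7* at 15.8 and 20.4. The part of the Sertoli markers in these genes was not tested. Without the third A1 library the count called in A1 against Aal was again 9. Markers of Leydig cells (3 of 8 in the table, summing to at most 8.80 FPKM), peritubular myoid cells (3 of 7, at most 6.53) and macrophages (3 of 9, at most 10.5) were each highest in that library. Endothelial markers (5 of 8) summed to 8.80 and 10.4 FPKM in Aal, 7.09 to 9.15 in A1 and 3.56 to 4.53 in A3. The sums of A1 and Aal overlapped. Of 4 tested endothelial markers 1 rose and 2 fell in A1 against Aal (75%, beside 42.0% of all genes). In A3 against Aal 0 rose and 3 fell (75%, beside 57.5%). *Kdr* passed the filter through Aal alone in both comparisons, and so did *Tek* in A3 against Aal. The part of the endothelial markers in the carriers that fell was not tested. None of the 8 red blood cell markers was in the table. The germ cell markers *Dazl*, *Uchl1* and *Tex101* summed to 4547 to 7836 FPKM.

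**Figure D4:**
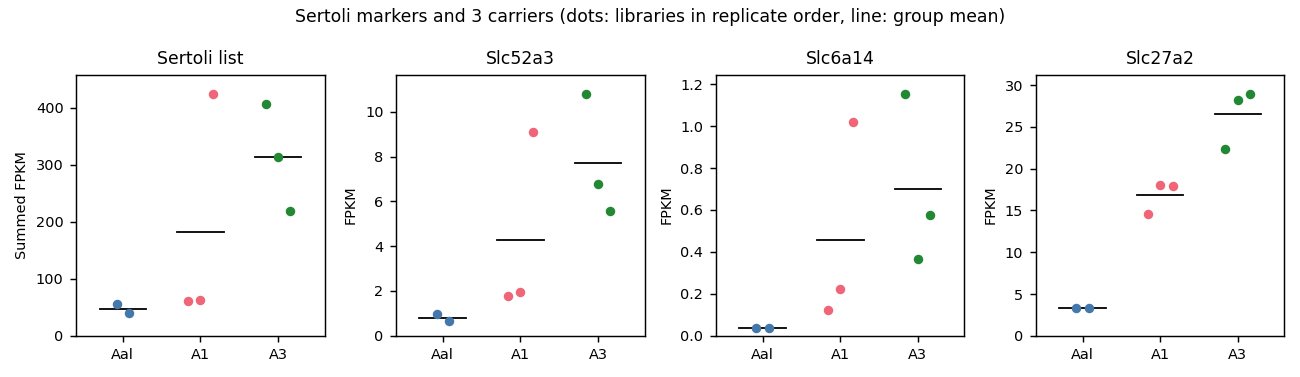
Summed FPKM of the 11 Sertoli markers and FPKM of Slc52a3, Slc6a14 and Slc27a2 by library, in replicate order from left to right within each group, with a line for the group mean and axes that start at 0. The third A1 library (424 FPKM of markers) stands with A3 for Slc52a3 and Slc6a14, and with the other A1 libraries for Slc27a2.

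The genes with the largest changes had close matches among the other carriers, measured as Pearson r of log2(FPKM + 1) over the 8 libraries among 83 carriers. These values are descriptions, since all genes share the libraries and 3 group means set most of r. *Slc27a2* was most like *Slc29a4* (0.991), *Slc17a7* (0.986) and *Slc25a25* (0.976). *Slc38a4* was most like *Slc25a24* (0.969) and *Slc38a1* (0.965), which fell at both steps or mainly at the second. The r of *Slc22a16* with *Slc2a3*, both of which had most of their loss in A1, was 0.945.

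Genes that act beside amino acid carriers gave mixed values. Of 7 genes of the amino acid response and of serine and glutamine metabolism in the table, *Trib3*, a target of the ATF4 stress response, was called lower in A1 and A3 against Aal, with 14.5 and 14.3 FPKM in Aal, 5.73, 6.10 and 5.02 in A1 and 3.42, 3.25 and 3.44 in A3 (log2 fold change -1.22 and -1.81, limma adjusted p 0.000287 and 1.42e-05). *Phgdh*, the first enzyme of serine synthesis, dipped in A1 as *Slc39a3* did, from 60.9 and 61.4 FPKM to 45.1, 39 and 38.9 and back to 53.6, 70.5 and 72.4. Its log2 fold change was -0.57 and then 0.65 (limma adjusted p 0.00139 and 0.00953). In the whole list 2 of 7 genes fell and 0 rose in A1 against Aal, 1 rose and 2 fell in A3 against A1, and 1 of 6 rose and 1 fell in A3 against Aal. These are 28.6%, 42.9% and 33.3%, beside 42.0%, 19.4% and 57.5% of all genes. Of 8 other carriers of the Slco and Mfsd families 6 were tested, of which 1 rose and 1 fell in A3 against Aal (33.3%, beside 57.5% of all genes). *Mfsd7c* was called higher in A3 against Aal (1.25, limma adjusted p 0.000208) with 1.36 and 1.1 FPKM in Aal, 1.89, 2.44 and 4.27 in A1 and 4.63, 4.68 and 3.64 in A3.

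The 25 genes tested in no comparison had at most 1.35 FPKM in any library. In at least 1 library 21 of the 109 genes had fewer than 10 reads, too few for a small difference to be detectable at this depth. *Slc7a11*, the cystine and glutamate exchanger xCT, had 0.552 and 0.479 FPKM in Aal and 0.0582 to 0.198 in the 6 later libraries. *Slc5a4a* had 0.866 and 1.1 FPKM in Aal and at most 0.462 later, and *Slc8a1*, a sodium and calcium exchanger, had 0.166 and 0.185 FPKM in Aal and 0.520 to 0.798 later. These 3 were named after their values were seen, and no test was made on them. Of all 109 genes, 103 had a single position on mm9 and 41 of these overlap another annotated gene, so their reads are uncertain.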

How the data were processed

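Total RNA of sorted EGFP-positive germ cells was sequenced as single-end reads from stranded mRNA libraries. Per the labels and the study's methods, the authors trimmed reads with cutadapt 1.9, aligned them to mm9 with STAR 2.5.2b and counted genes with featureCounts. They deposited 1 table of FPKM with 1 column per library. The annotation, the strand setting and how counts became FPKM are not given in the sources used here. The table analysed holds 5736 genes, no value of 0, and 34.0% to 34.4% of each library's reads, so every count is out of that part of the transcriptome. All 45888 values were whole multiples of the worth of 1 read (within 0.001 read), which returned reads and totals.

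Groups came from the sample titles. log2(FPKM + 1) was fitted on the whole table with limma 3.58.1 in R 4.3.3 (lmFit, eBayes with a mean-variance trend) on the libraries of each pair of groups, two-sided, with Benjamini-Hochberg adjustment over all genes with at least 1 FPKM in at least 2 libraries compared. The fit was tested on simulated data. The FPKM were given no count model. Counts recovered from them entered limma voom as an alternative chosen after seeing the data. The others were another pseudocount, other filters, scalings and thresholds, a fit on all 8 libraries, no trend, single libraries left out and a replicate block. Calls at an adjusted p of at most 0.01 follow the threshold in the study's Results, and its Methods name 0.05, which was an alternative here.

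Solute carrier classes follow family numbers. Lists of partner genes and cell markers were written from general knowledge. The members and lists were chosen with earlier results of these data known. Named genes are the called ones (at most 10 per direction and comparison), the 10 with the highest mean, the highest and the most changed of each class, those with A1 above or below both other groups, and those most alike in pattern. Some genes that this rule or the lists name are not reported here, and they stay in the counts and sums. Other genes stand as family members or list genes, or are marked as picked once their values were known. Positions are from GENCODE M1 on mm9, and sequences from RefSeq on GRCm38.p6, with entries for 85 of the 109 genes. Same-numbered A1 and A3 libraries deviated with correlations of -0.107, 0.022 and -0.323 over 4789 genes.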

Additional observations from a re-analysis of the deposited data

How the results depend on the processing

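The 9, 0 and 15 solute carrier genes called (A1 against Aal, A3 against A1, A3 against Aal) were also the counts with no filter, quantile scaling, all 8 libraries in the fit, no mean-variance trend and an adjusted p of at most 0.05, and median-ratio scaling gave 9, 0 and 16. A pseudocount of 0.1 gave 13, 4 and 25, an FPKM minimum of 5 gave 5, 0 and 7, limma voom on recovered reads gave 15, 9 and 25 (chosen after seeing the data), no fold threshold gave 24, 11 and 39, and leaving out single libraries gave 3 to 9, 0 to 4 and 8 to 19. Under an FPKM minimum of 5 the split was 3 higher to 2 lower and 4 to 3, since low genes that fell were not tested. Of all genes, 424, 69 and 823 were called. A pseudocount of 0.1 gave 670 and 152 in the first and second comparisons, voom 731 and 199, no fold threshold 1252, 349 and 2048, and an FPKM minimum of 5 gave 538 in the third. Leaving out single libraries gave 179 to 475, 26 to 111 and 597 to 878. For the 32, 21 and 47 carriers with an adjusted p of at most 0.05, an FPKM minimum of 5 left 16, 8 and 23, and leaving out libraries gave 15 to 36, 12 to 25 and 30 to 49. The cause of the other moves was not tested.

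The median log2 fold change of the carriers in A1 against Aal was -0.0802 with a pseudocount of 0.1, -0.0371 with no filter, 0.00406 at an FPKM minimum of 5, -0.0976 with median-ratio scaling and -0.0780 with voom, and -0.0647 to -0.0314 leaving out libraries. In A3 against A1 leaving out libraries gave -0.0220 to 0.00972. In A3 against Aal it was 0.0263 at an FPKM minimum of 5, -0.121 with median-ratio scaling and -0.0893 with voom, and -0.0971 to -0.00835 leaving out libraries.

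The labels do not say whether same-numbered A1 and A3 libraries share a litter or a day. Their correlations gave no sign of pairs, but over so few libraries they cannot exclude a shared day. With a replicate block the calls among carriers were 9, 0 and 15, and those among all genes 444, 39 and 800.

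Of 1217 values of named carriers under an alternative, 1166 kept direction and side of the call threshold, 23 newly passed it, 10 no longer did and 18 changed sign. These counts do not follow the rises and falls at an adjusted p of at most 0.05, some of which were lost. The limma adjusted p of Slc12a7 in A3 against A1, for example, ran from 0.011 to 0.0669. The sign changes are all of values near 0. Under median-ratio scaling they were Slc39a7 (-0.0056, A1 against Aal), Slc3a2 (-0.0108, A3 against Aal) and Slc5a3 (-0.00305, A3 against Aal). Under quantile scaling they were Slc39a7 in A1 against Aal (-0.0992), Slc2a3 (0.0151) and Slc7a5 (-0.00884) in A3 against A1, and Slc3a2 in A3 against Aal (-0.142). Leaving out single libraries gave, in A1 against Aal, -0.143 to 0.041 for Slc12a7, -0.0417 to 0.00544 for Slc3a2 and -0.135 to 0.0611 for Slc7a5. It gave -0.123 to 0.0762 for Slc2a3 and -0.154 to 0.0259 for Slc6a9 in A3 against A1. For A3 against Aal it gave -0.0429 to 0.121 for Slc5a3 and -0.107 to 0.0891 for Slc7a5.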
